A study of Mus musculus with 6 samples.

Results

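The genes described here are 8 reported targets of the microRNA miR-155, namely Bach1, Socs1, Cebpb, Inpp5d, Jarid2, Ikbke, Rheb and Tspan14. They were chosen by name as messenger RNAs reported to be bound by miR-155, with earlier results of these data known. The rule that selects them uses no measured value. They are 8 of the 34755 genes represented on the arrays, and a further 25 reported miR-155 targets on the arrays served for comparison. The series holds 6 microarrays that measured RNA of macrophages grown in culture from mouse bone marrow cells. Of these, 3 arrays came from Dicer KO cells (LysM-Cre/Dicerflox/flox/Apoe-/-) and 3 from Dicer WT cells (LysM-Cre/Dicerwt/wt/Apoe-/-). In each genotype 1 array was hybridised with RNA precipitated by an antibody to AGO2 (AGO2-RIP), 1 with RNA precipitated by control IgG (IgG-RIP) and 1 with total RNA of the extract before precipitation (input). All 6 samples therefore lacked Apoe and carried LysM-Cre, a recombinase driven by the lysozyme gene of myeloid cells, and the WT cells carried wild-type Dicer alleles in place of the floxed ones. Per the labels the mice were male and 6 to 8 weeks old, the cultures lasted 7 days, and each array is the only sample of its group. The labels do not say whether marrow of several mice was pooled.

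Dicer is the enzyme that cuts microRNA hairpins into mature microRNAs, and AGO2 is the Argonaute protein that carries a mature microRNA to the messenger RNAs it pairs with. Pairing rests mainly on the seed, the bases near the 5′ end of the microRNA, and usually lowers the stability or translation of the target. In macrophages miR-155 is known as a microRNA induced by Toll-like receptor ligands and cytokines, and its targets include inhibitors of cytokine signalling, transcription factors and signalling enzymes. The comparisons therefore ask which of these messenger RNAs were over-represented in the AGO2 precipitate, and whether that differed between Dicer KO and WT cells.

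The mature strands of miR-155 are shown because their seeds define the target sites. Both were taken from RefSeq on the GRCm38.p6 assembly. The 5p strand lies at chr16:84714143-84714165 and the 3p strand at chr16:84714182-84714202, both on the plus strand, and capitals mark bases 2 to 8, the seed.
mmu-miR-155-5p: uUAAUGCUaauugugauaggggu
mmu-miR-155-3p: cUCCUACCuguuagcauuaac
Of 1738 mature mouse miRNAs in the same table, 1, miR-155-5p itself, carried the 5p seed. The 8-base site complementary to that seed, with an A opposite base 1, reads AGCATTAA. It was searched on both strands of the 60-base array probes, which were the only target sequence at hand for these genes. It occurred in 78 of 55627 probes (0.140%) on the transcript strand and in 57 (0.102%) on the opposite strand. Among the 10 probes of the 8 genes, 1 held it, that of Cebpb, and 0 held it on the opposite strand. The stretch around that site is shown with the site in capitals. It lies at chr2:167515854-167515877 on the plus strand of mm9, and the site itself fills bases 39 to 46 of the probe.
Cebpb: ttttccgtttcgAGCATTAAagtg
A match of letters is a description of the probe. The probes of the other 7 genes cover other stretches of their transcripts, and their 3′ ends outside the probes were not analysed here.

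Levels are log2 of the background-subtracted signal minus the 75th percentile of the same array, so that 0 is the brightness of that percentile. They were read within a gene across arrays and not between genes, since probes differ in their response. A gene counted as measured if both arrays compared gave signals well above background, and as called if those signals were at least 2-fold apart. Where 1 array was not well above background, only a bound was given. The bright value was then set against the dim array's lowest signal well above background, or against the dim spot itself where that was higher. With 1 array per group no such difference has a replicate check. The noise of single spots, estimated from probes printed more than once, gave a difference between 2 arrays an SD of 0.24 (KO) and 0.23 (WT) for AGO2-RIP minus IgG-RIP, which covers the spots and not the cultures or precipitations. Each gene was read from 1 spot per array and probe. The files gave 1 probe for 7 of the genes and 3 for Rheb.

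Between 37.6% and 46.3% of spots were well above background per array, no spot was saturated, and all 6 arrays lay on 1 slide, with KO on slide row 1 and WT on row 2. Of 7 macrophage markers, 6 were above background on all 6 arrays and Lyz2 on 4. Lyz2, the gene into which LysM-Cre is inserted, differed with genotype, at 3.56, 4.11 and 5.66 on the KO arrays for AGO2-RIP, IgG-RIP and input, against -1.16 on the WT IgG-RIP array and no signal well above background on the other WT arrays. Of 23 markers of other cell types, 16 were above background on 0 arrays and 2, Hba-a1 and Kdr, on all 6. Dicer1 was lower in KO than in WT input by 0.77 on the log2 scale (-0.55 in KO and 0.22 in WT), whereas on the AGO2-RIP arrays it stood at 0.94 in KO and 0.93 in WT. Whether the Dicer1 probe lies in the floxed part of the gene was not analysed here. The Y-linked Ddx3y and Eif2s3y were detected in 3 of 3 KO and 0 of 3 WT samples, although all samples are labelled male. Xist, which is transcribed from an inactive X chromosome, was detected in 0 of 3 KO and 3 of 3 WT samples. Differences between KO and WT cannot be told apart from differences of sex or of slide row, nor from whatever goes with the difference in Lyz2. The arrays carry no probe named for Mir155 or its host transcript Mir155hg, and the mature miR-155 was not measured.

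**Figure D1:**
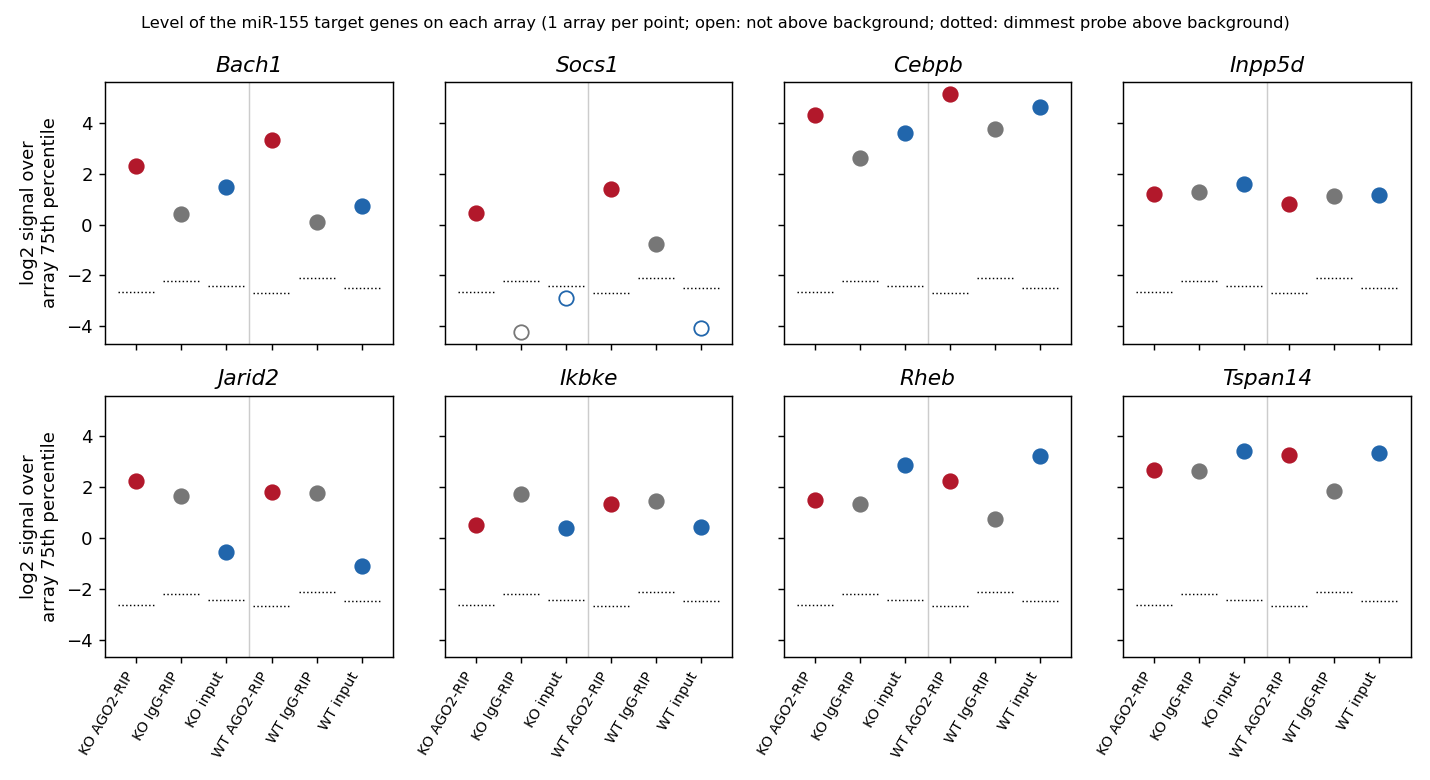
Level of each of the 8 genes on the 6 arrays, as log2 of the signal relative to the 75th percentile of the array. The Dicer KO arrays stand left of the Dicer WT arrays, each in the order AGO2-RIP, IgG-RIP and input. Hollow symbols mark arrays where the probe was not well above background. Bach1 stood at 2.32 in KO and 3.32 in WT on the AGO2-RIP arrays, above both of its other fractions in each genotype.

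Of the inhibitors and transcription factors on the list, Bach1, Socs1 and Cebpb were more abundant in the AGO2 precipitate than in the IgG precipitate in both genotypes. Bach1 encodes a heme-binding repressor of antioxidant genes (probe at chr16:87733532-87733591, plus strand, mm9). Its level in KO cells was 2.32 in AGO2-RIP, 0.42 in IgG-RIP and 1.46 in input. In WT cells it was 3.32 in AGO2-RIP, 0.10 in IgG-RIP and 0.72 in input. Bach1 was thus highest in the AGO2 fraction of either genotype, 3.72-fold over IgG-RIP in KO (log2 1.89) and 9.27-fold in WT (log2 3.21). These differences exceeded those of 97.35% of measured genes in KO and 97.85% in WT. Over input they were 0.86 in KO and 2.59 in WT on the log2 scale.

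Socs1 encodes an inhibitor of the JAK kinases that act below cytokine receptors (probe at chr16:10783951-10784010, minus strand, mm9). It was well above background on 3 of the 6 arrays. Its level was 0.47 in KO AGO2-RIP, against 1.41 in WT AGO2-RIP and -0.76 in WT IgG-RIP, while the other 3 arrays were not well above background. Only bounds were available for most of its comparisons. The AGO2-RIP signal of Socs1 exceeded that of IgG-RIP by at least 6.42-fold in KO and by 4.501-fold (log2 2.17) in WT, where the difference exceeded that of 93.4% of genes. Over input it was at least 7.52-fold higher in KO and at least 14.8-fold higher in WT. The WT IgG precipitate was itself at least 3.28-fold above WT input.

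Cebpb, the gene whose probe carries the site shown above, encodes the leucine-zipper factor C/EBPβ of macrophage differentiation and inflammatory gene expression (probe at chr2:167515828-167515887, plus strand, mm9). In KO cells the level was 4.31 in AGO2-RIP, 2.62 in IgG-RIP and 3.59 in input. In WT cells the level was 5.13 in AGO2-RIP, 3.75 in IgG-RIP and 4.63 in input. Every KO array was below its WT counterpart. Within each genotype the order was the same, with AGO2-RIP highest and IgG-RIP lowest. Cebpb was 3.23-fold over IgG-RIP in KO (log2 1.69) and 2.61-fold in WT (log2 1.38), above 96.3% and 85.4% of genes. Over input its log2 differences were 0.72 in KO and 0.50 in WT, both under 2-fold.

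Rheb, Tspan14 and Ikbke had larger AGO2-over-IgG values in WT than in KO. Rheb encodes the small GTPase that activates the kinase complex mTORC1 (probe at chr5:24309069-24309128, minus strand, mm9). Its level in KO cells was 1.499 in AGO2-RIP, 1.32 in IgG-RIP and 2.87 in input. In WT cells it was 2.23 in AGO2-RIP, 0.75 in IgG-RIP and 3.23 in input. Input was thus the highest Rheb fraction in both genotypes. AGO2-RIP minus IgG-RIP was 0.18 in KO and 1.48 in WT on the log2 scale, and AGO2-RIP minus input was -1.37 in KO and -1.002 in WT. A second Rheb probe, which shares 50 bases with the first and is no separate evidence, gave 0.58 in KO and 1.55 in WT over IgG-RIP, and -0.95 in KO and -0.80 in WT over input. The third Rheb probe was above background on 1 array.

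Tspan14 encodes a tetraspanin of the TspanC8 group, which accompany the membrane protease ADAM10 (probe at chr14:41719999-41720058, minus strand, mm9). The KO levels were 2.69 in AGO2-RIP, 2.64 in IgG-RIP and 3.43 in input. The WT levels were 3.28 in AGO2-RIP, 1.86 in IgG-RIP and 3.34 in input. The AGO2 and IgG precipitates were therefore nearly level in KO (log2 difference 0.05) and 1.42 apart in WT, whereas the 2 inputs differed by 0.10. AGO2-RIP minus input was -0.75 in KO and -0.06 in WT.

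Ikbke encodes IKKε, a kinase that activates interferon regulatory factors (probe at chr1:133151809-133151868, minus strand, mm9). In KO macrophages it stood at 0.53 in AGO2-RIP, 1.72 in IgG-RIP and 0.40 in input. In WT macrophages it stood at 1.34 in AGO2-RIP, 1.47 in IgG-RIP and 0.43 in input. IgG-RIP was the highest fraction of Ikbke in both genotypes. AGO2-RIP minus IgG-RIP was -1.20 in KO, a value that 6.61% of genes were below, and -0.13 in WT, and AGO2-RIP minus input was 0.12 in KO and 0.90 in WT.

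Inpp5d and Jarid2 were within 2-fold between the AGO2 and IgG precipitates in both genotypes. Inpp5d encodes SHIP1, the phosphatase that removes the 5-phosphate from the lipid product of PI3-kinase (probe at chr1:89616958-89617017, plus strand, mm9). Its level in KO cells was 1.18 in AGO2-RIP, 1.28 in IgG-RIP and 1.62 in input. In WT cells it was 0.80 in AGO2-RIP, 1.11 in IgG-RIP and 1.15 in input. Inpp5d varied least over the 6 arrays of all the genes on the list that were above background throughout. Its AGO2-RIP minus IgG-RIP difference was -0.10 in KO and -0.31 in WT, close to the middle of all genes (above 55.5% and 47.96% of them), and AGO2-RIP minus input was -0.43 in KO and -0.35 in WT.

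Jarid2 encodes a DNA-binding cofactor of the Polycomb repressive complex PRC2 (probe at chr13:45016247-45016306, plus strand, mm9). KO cells gave levels of 2.23 in AGO2-RIP, 1.67 in IgG-RIP and -0.55 in input. WT cells gave levels of 1.82 in AGO2-RIP, 1.78 in IgG-RIP and -1.09 in input. Both precipitates were thus far above input. AGO2-RIP minus input was 2.78 in KO and 2.90 in WT, above 98.5% and 98.7% of genes. The control precipitate gave similar values, with IgG-RIP minus input at 2.22 in KO and 2.87 in WT, so AGO2-RIP minus IgG-RIP was 0.57 in KO and 0.04 in WT.

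**Figure D2:**
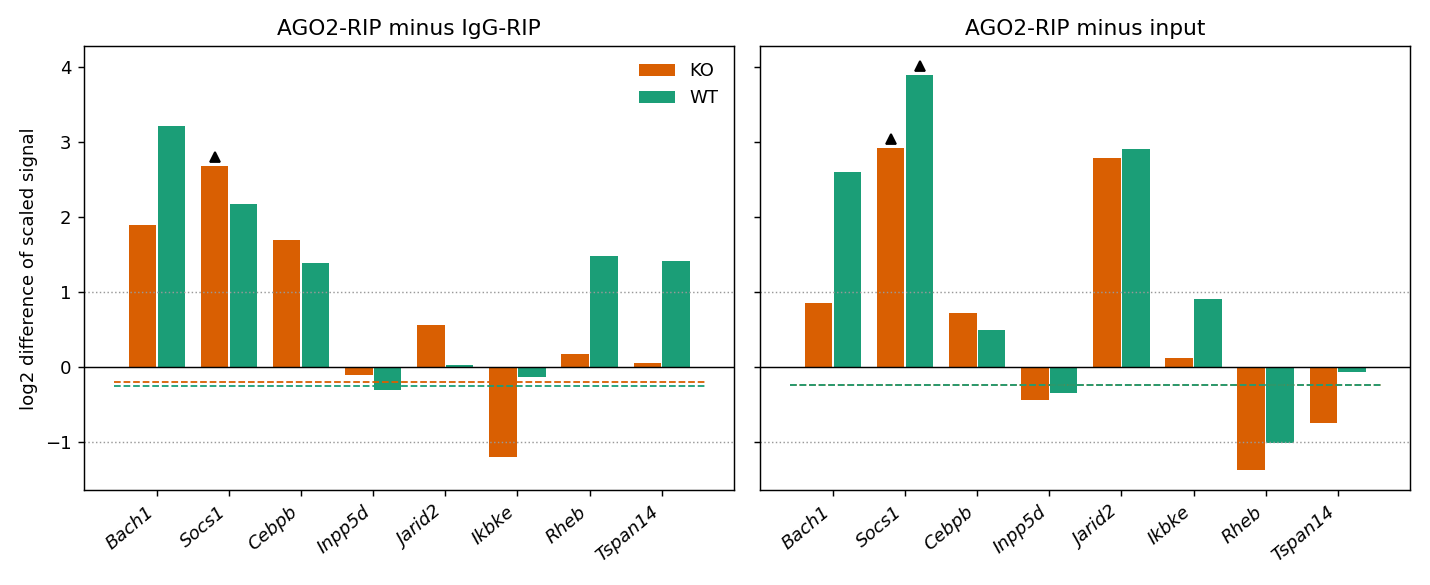
Log2 difference of AGO2-RIP over IgG-RIP and of AGO2-RIP over input for each gene, with Dicer KO beside Dicer WT. Dashed lines mark the median of all measured genes in each genotype, and dotted lines mark 2-fold. Triangles mark the lower bounds of Socs1. Bach1 and Cebpb exceed 2-fold over IgG-RIP in both genotypes, and Rheb and Tspan14 in WT, at 1.48 and 1.42.

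Over IgG-RIP, 2 of the 7 genes measured in KO were at least 2-fold higher and 1, Ikbke, was lower, where 10.5% of the 15649 measured genes were higher and 9.92% lower. In WT 5 of 8 were at least 2-fold higher, namely Bach1, Socs1, Rheb, Tspan14 and Cebpb, and 0 were lower, where 20.3% of 15216 genes were higher and 22.2% lower. The median of the listed genes was 0.18 in KO and 1.40 in WT on the log2 scale, beside -0.19 and -0.24 over all measured genes. These counts and medians rest on different genes, since Socs1 gave only a bound in KO. Over the 7 genes measured in both genotypes, 2 were higher in KO and 4 in WT, with medians of 0.18 in KO and 1.38 in WT. With Socs1 at its bound, 3 of 8 were higher in KO, with a median of 0.37. The shares of all genes count no gene at a bound, so they do not serve as a reference for this count. Among the pathway lists described below with at least 5 measured genes, the WT medians ran from -0.01 (C/EBP and partners) to 1.14 (JAK-STAT and SOCS). A WT median above that of all genes was thus not particular to the listed genes. The split of all genes depended on the scaling. Higher genes made up 51.3% of the calls in KO, 50.1% with quantile normalization and 48.9% without a background filter, but 67.5% after normexp background correction (997 higher, 481 lower). In WT they made up 47.8%, but 66.4% when arrays were centred on their median (3986 higher, 2018 lower) and 68.5% after normexp (2574 higher, 1185 lower). Quantile normalization moved the WT share the other way, to 41.7% (2824 higher, 3952 lower), as did using no filter, at 42.3% (5388 higher, 7352 lower). The 5 WT genes were higher under each of these scalings, and in KO the 1 lower gene was lost with normexp, at -0.81 for Ikbke.

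Over input, 1 of 7 genes was at least 2-fold higher in KO (Jarid2) and 1 lower (Rheb), where 14.6% of all genes were higher and 26.4% lower. In WT 2 of 7 were higher (Jarid2 and Bach1) and 1 lower (Rheb, just past the threshold), where 14.8% were higher and 26.4% lower. Of the genes measured, only Bach1 was at least 2-fold higher than both IgG-RIP and input in WT, and Socs1 met the same bar by its bound over input. With Socs1 at its bound, 2 of 8 were higher than input in KO and 3 of 8 in WT. No other gene was counted at a bound, so the shares of all genes are no reference for these 2 counts. The split of all genes again moved with the scaling. In KO 35.6% of calls were higher, against 16.0% with median centring (1203 higher, 6326 lower) and 46.8% with quantile normalization (2666 higher, 3029 lower). In WT 36.0% were higher, against 23.5% (1516 higher, 4942 lower) and 46.1% (2504 higher, 2924 lower). Without a filter the shares were 50.4% in KO (6101 higher, 6011 lower) and 44.997% in WT (4983 higher, 6091 lower). With quantile normalization Bach1 and Cebpb joined Jarid2 in KO, at 1.19 and 1.39.

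The control precipitates also departed from input. In KO, 2 of 7 genes were at least 2-fold higher in IgG-RIP than in input (Jarid2 at 2.22 and Ikbke at 1.32) and 2 lower (Rheb at -1.55 and Bach1 at -1.04), where 17.5% of all genes were higher and 28.8% lower. In WT 2 of 7 were higher (Jarid2 at 2.87 and Ikbke at 1.04) and 2 lower (Rheb at -2.49 and Tspan14 at -1.48), where 18.6% were higher and 37% lower. The excess of Jarid2 over input was therefore found in the AGO2 and the IgG precipitate alike.

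An additive limma fit over the 6 arrays, with fraction and genotype as terms and 18888 genes, removes an overall difference between genotypes and takes as error how far the differences between fractions depart from each other in the 2 genotypes. It called 0 genes higher and 0 lower in AGO2-RIP than in IgG-RIP (0% each at an adjusted p under 0.05), with 2299 and 1255 at an unadjusted p under 0.05. Bach1 had a fitted log2 difference of 2.55 (SE 0.54, limma adjusted p = 0.117) and Cebpb of 1.54 (SE 0.38, limma adjusted p = 0.145). Both passed when the fit was limited to genes detected above background on every array, with limma adjusted p of 0.025 for Bach1 and 0.049 for Cebpb. Under that filter many other genes passed too, as counted in the last section, so the pass was not particular to these genes. Socs1, whose fit includes arrays not well above background, had limma adjusted p = 0.205, and the other 5 genes lay between 0.362 and 0.759.

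Against input the same fit called 4.47% of genes higher and 5.77% lower (844 and 1090). Jarid2 was the 1 gene of the list that passed, higher by 2.84 (SE 0.40, limma adjusted p = 0.037). That call was lost with quantile normalization (limma adjusted p = 0.067) and when any 1 AGO2-RIP or input array was left out (limma adjusted p 0.137 to 0.287). For Socs1 the limma adjusted p was 0.059, for Bach1 0.094 (log2 difference 1.73), for Rheb 0.15 (log2 difference -1.19), and for the other 4 genes 0.312 to 0.589.

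In total RNA before precipitation, 6 of the 7 measured genes were within 2-fold between genotypes. Bach1 was higher in KO input by 0.74 (1.46 in KO and 0.72 in WT), above 96.9% of genes. Cebpb was lower in KO input by 1.04 (3.59 in KO and 4.63 in WT), a difference that 1.52% of genes were below. Cebpb was the 1 gene of the 7 measured past 2-fold, and 0 were higher, where 1.02% of all 14664 genes were higher and 1.73% lower. After normexp or quantile normalization the Cebpb difference was under 2-fold, at -0.93 and -0.78. The remaining log2 differences of KO minus WT input were 0.54 for Jarid2, 0.47 for Inpp5d, 0.10 for Tspan14, -0.03 for Ikbke and -0.36 for Rheb. Socs1 was not well above background in either input. In bulk RNA, fewer cells of a type and less RNA per cell cannot be told apart.

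In the AGO2 precipitates themselves, 6 of the 8 genes had a lower level in KO than in WT, and 0 differed by at least 2-fold, where 6.89% of all measured genes were higher and 11% lower. The KO minus WT differences were -0.997 for Bach1 (just under 2-fold), -0.93 for Socs1, -0.82 for Cebpb, -0.81 for Ikbke, -0.73 for Rheb and -0.59 for Tspan14. Inpp5d and Jarid2 were higher in KO, by 0.38 and 0.42. The median of the 8 was -0.77, beside -0.03 over all measured genes. The pathway lists described below had medians from -0.68 (IKK and TBK1) to -0.005 (phosphoinositide and mTORC1), so a median below that of all genes was not particular to the 8. Bach1 was therefore lower in the KO than in the WT AGO2 precipitate and higher in KO than in WT input.

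**Figure D3:**
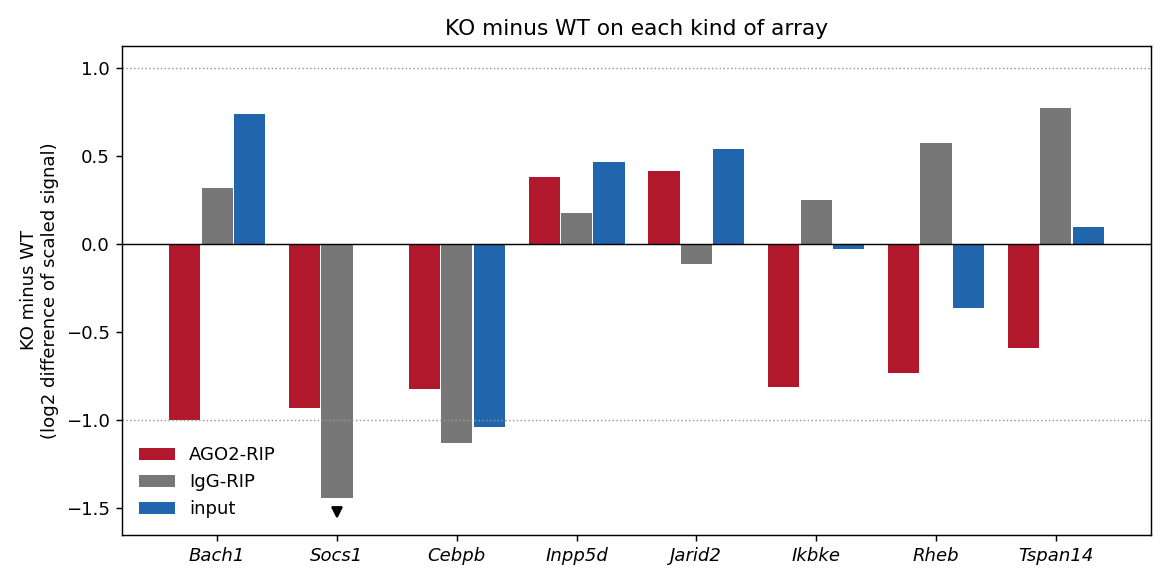
KO minus WT log2 difference of each gene in AGO2-RIP, IgG-RIP and input. Socs1 is plotted where it was measured or as a bound, and Bach1 lies at -0.997 in AGO2-RIP and 0.74 in input.

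Set over IgG-RIP within each genotype, 4 of the 7 genes measured on all 4 arrays were at least 2-fold lower in KO than in WT and 0 were higher, where 20.2% of 14054 genes were lower and 16.5% higher. These were Tspan14 (-1.37), Bach1 (-1.32), Rheb (-1.31) and Ikbke (-1.06), while Inpp5d (0.21), Cebpb (0.31) and Jarid2 (0.53) were higher in KO by under 2-fold, with Inpp5d (-0.11) and Cebpb (-0.01) turning below 0 under median centring. The median was -1.06, beside -0.03 over all genes. The pathway lists described below with at least 5 measured genes had medians from -1.46 (IKK and TBK1) to 0.22 (phosphoinositide and mTORC1). A median below that of all genes was thus not particular to the listed genes. The control precipitates entered each of these values, adding to some and offsetting others. KO minus WT in IgG-RIP was 0.78 for Tspan14, 0.57 for Rheb, 0.32 for Bach1, 0.25 for Ikbke, 0.18 for Inpp5d, -0.11 for Jarid2 and -1.13 for Cebpb. Socs1 was at least 2.72-fold lower in KO. Thus 0 of the 7 genes measured in both IgG precipitates were at least 2-fold higher in KO and 1, Cebpb, was lower, where 11% of all genes were higher and 8.94% lower. For Tspan14 the IgG difference was larger than the AGO2 difference of -0.59. For Cebpb the AGO2-RIP level was itself lower in KO (-0.82). Its value over IgG-RIP was above 0 only since the IgG-RIP level was lower still. Among all genes past 2-fold, 44.9% were higher in KO, against 25.5% with median centring (1371 higher, 4006 lower) and 34.9% with normexp (1078 higher, 2011 lower). The split turned to 54.2% higher with quantile normalization (2919 higher, 2471 lower) and to 53.4% without a filter (6978 higher, 6091 lower). With normexp Ikbke (-0.82) and Rheb (-0.95) were under 2-fold, which left Bach1 and Tspan14, and with quantile normalization Ikbke (-0.93) was.

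Set over input, Bach1 was the 1 gene of 7 that was at least 2-fold lower in KO (-1.74, a value that 2.42% of genes were below), and 0 were higher, where 11.6% of 13868 genes were lower and 6.98% higher. Ikbke was at -0.78, Tspan14 at -0.69, Rheb at -0.37, Jarid2 at -0.12, Inpp5d at -0.09 and Cebpb at 0.22. Thus 6 of 7 lay below 0, as did 51.3% of all genes. The difference for Bach1 passed 2-fold over both IgG-RIP and input, and those for Rheb, Tspan14 and Ikbke were under 2-fold over input. This was not particular to Bach1. On the pathway lists described below, Nfe2l2 (-2.14 over IgG-RIP and -1.83 over input), Tyk2 (-2.42 and -1.28) and Tbk1 (-2.15 and -1.33) did the same. Azi2 (2.19 and 1.93) and Mlst8 (1.24 and 1.13) passed 2-fold in the other direction. Of all genes past 2-fold, 37.6% were higher in KO, against 19.3% with median centring (577 higher, 2419 lower) and 22.5% with normexp (304 higher, 1049 lower). It was 43.2% with quantile normalization (1105 higher, 1451 lower) and turned to 60.3% without a filter (5793 higher, 3817 lower). These comparisons share their AGO2-RIP arrays, so the one over input does not repeat the one over IgG-RIP independently.

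**Figure D4:**
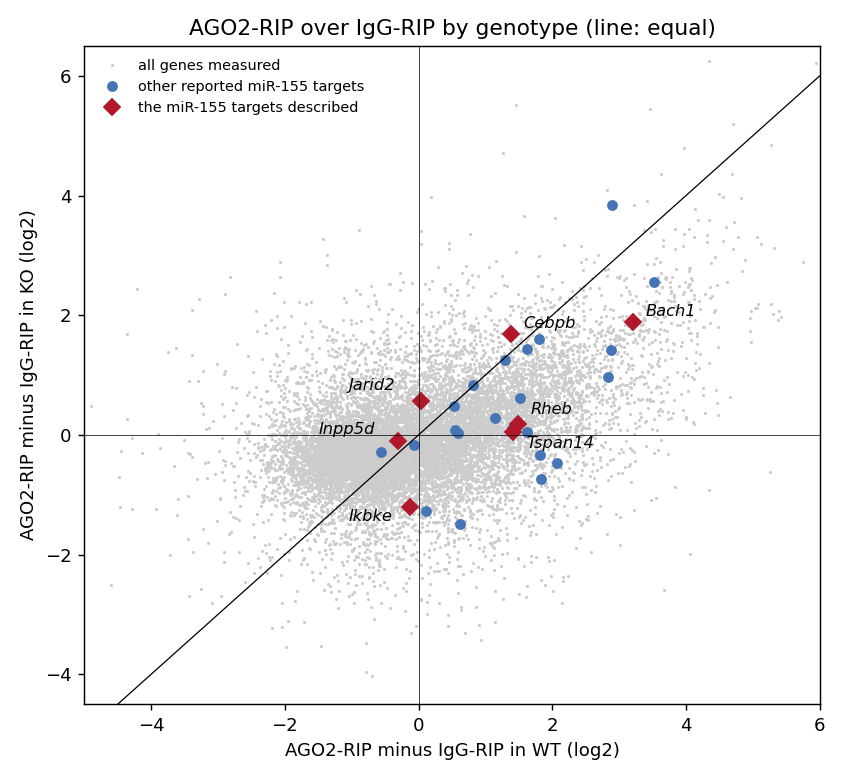
AGO2-RIP minus IgG-RIP (log2) in Dicer KO, on the vertical axis, against Dicer WT, on the horizontal axis, for 14054 genes measured on all 4 arrays, of which 4 lie outside the axes. The genes of the list are named. Bach1, Rheb, Tspan14 and Ikbke lie at least 1 log2 unit below the line of equality.

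The other reported miR-155 targets gave a wider view of the same comparisons. Over IgG-RIP, 6 of 23 were at least 2-fold higher and 2 lower in KO, and 14 of 23 were higher and 1 lower in WT, beside the 10.5% higher and 9.92% lower of all genes in KO and 20.3% and 22.2% in WT. Their medians were 0.10 in KO and 1.39 in WT. In KO the highest were Il7r (3.84), the interleukin-7 receptor chain, and Wee1 (2.56), a kinase that restrains entry into mitosis, and the lowest were Pik3r1 (-1.49) and Spi1 (-1.28). In WT the highest were Wee1 (3.52) and Il7r (2.90), and the lowest were Ets1 (-1.65) and Rhoa (-0.57). Over input, 4 of 23 were higher and 3 lower in KO, where 14.6% of all genes were higher and 26.4% lower, so the higher count was near the share of all genes. In WT 7 were higher and 4 lower, where 14.8% and 26.4% of all genes were. In KO against WT input, 0 were at least 2-fold higher and 1, Il7r (-1.90), was lower, where 1.02% of all genes were higher and 1.73% lower, with a median of 0.02.

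KO minus WT of AGO2-RIP over IgG-RIP was below 0 for 19 of the 22 other targets measured on all 4 arrays, beside 51.3% of all genes. Of the 22, 9 were at least 2-fold lower and 0 higher, beside 20.2% lower and 16.5% higher of all genes. Their median was -0.88. The 9 were Ripk1 (-2.56), a kinase of tumour necrosis factor signalling, the transcription factor Fos (-2.54), Smad5 (-2.16), which carries bone morphogenetic protein signals, Pik3r1 (-2.10), a regulatory subunit of PI3-kinase, Trp53inp1 (-1.86), Peli1 (-1.58), a ubiquitin ligase, Hbp1 (-1.47), Spi1 (-1.39), which encodes the myeloid factor PU.1, and Csf1r (-1.30), the receptor for macrophage colony-stimulating factor. Il7r (0.94) was the highest of the 22. The control precipitates differed for several of these genes too. In AGO2-RIP, 0 of 23 were at least 2-fold higher and 5 lower in KO than in WT, where 6.89% of all genes were higher and 11% lower. In IgG-RIP 5 of 22 were higher and 1 lower, where 11% were higher and 8.94% lower. KO minus WT of Ripk1 was -0.40 on the AGO2-RIP arrays and 2.17 on the IgG-RIP arrays, that of Pik3r1 -0.29 and 1.81, and that of Fos -0.79 and 1.75, so most of their difference over IgG-RIP lay in the control. For Smad5 these 2 differences were -1.11 and 1.06, and for Hbp1 -1.05 and 0.42. Over input, 18 of 22 lay below 0, with 5 at least 2-fold lower, where 11.6% of all genes were. Under the other processing settings the count at least 2-fold lower over IgG-RIP was 7 to 12. The part of the IgG-RIP arrays in this pattern was not tested. Of the pathway lists described below, JAK-STAT and SOCS had 10 of 12 genes below 0 over IgG-RIP, and IKK and TBK1 had 7 of 8. PRC2 and the BACH1 partners and NRF2 list had 6 of 8 each, and phosphoinositide and mTORC1 had 6 of 13. A lean below 0 over IgG-RIP was thus not particular to reported miR-155 targets.

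**Figure D5:**
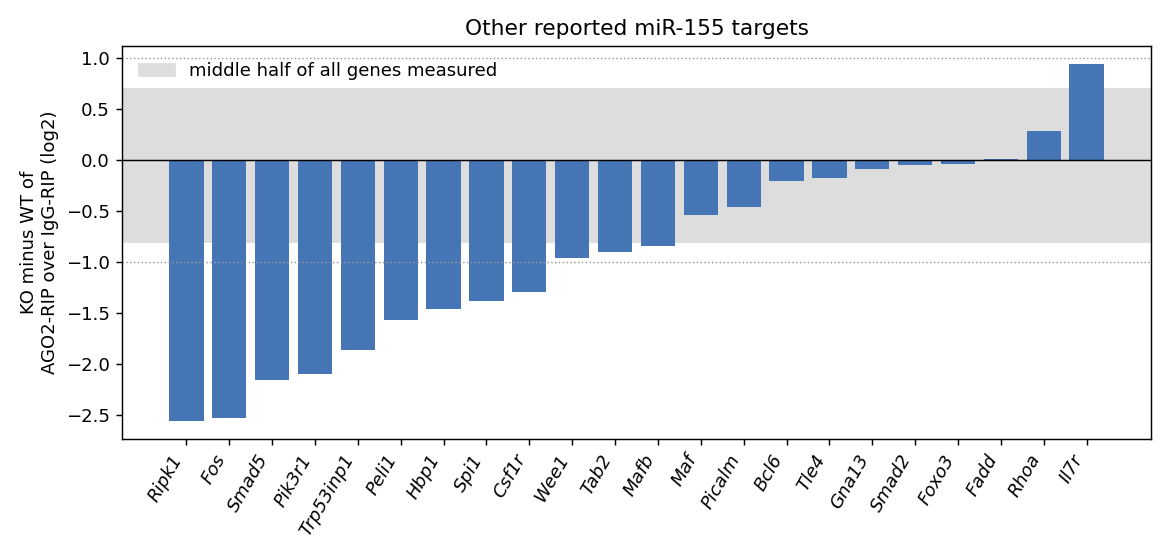
KO minus WT of AGO2-RIP over IgG-RIP (log2) for the other reported miR-155 targets that were measured on all 4 arrays, each as a bar. The interquartile range of all measured genes is shaded. Of these targets 19 of 22 lie below 0, the lowest at -2.56 (Ripk1).

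Genes that act with the listed genes were examined as pathway lists, over IgG-RIP in both genotypes. Their counts stand beside 10.5% higher and 9.92% lower of all genes in KO, 20.3% and 22.2% in WT, and 20.2% lower and 16.5% higher for KO minus WT. Of the JAK-STAT and SOCS genes, the pathway that Socs1 restrains, 1 of 12 was at least 2-fold higher and 1 lower in KO, and 7 of 13 were higher and 1 lower in WT. Examples were Ifngr2 (3.24 in KO and 4.55 in WT) and Ifngr1 (0.64 in KO and 2.38 in WT), the chains of the interferon gamma receptor, and the kinase Tyk2 (-1.997 in KO and 0.43 in WT). Of the 12 measured throughout, 6 were at least 2-fold lower and 1 higher in KO than in WT, with a median of -1.05. Between the IgG precipitates alone, 4 of 12 were at least 2-fold higher in KO and 1 lower, where 11% and 8.94% of all genes were. Between the AGO2 precipitates, 0 of 13 were higher and 2 lower, where 6.89% and 11% were. Set over input, 3 of 12 were at least 2-fold lower in KO and 0 higher, where 11.6% and 6.98% of all genes were. In the IKK and TBK1 group, where Ikbke belongs, 0 of 9 were higher and 2 lower in KO, and 3 of 8 were higher and 1 lower in WT. The adaptors Tbkbp1 (-0.22 in KO and 1.38 in WT) and Tank (-0.53 in KO and 1.32 in WT) led in WT. Of these 8 genes, 5 were at least 2-fold lower and 1 higher in KO than in WT, with a median of -1.46. Between the IgG precipitates 3 of 9 were at least 2-fold higher in KO and 0 lower. Between the AGO2 precipitates 1 of 8 was higher and 1 lower, and over input 2 of 8 were lower and 1 higher. How far the IgG-RIP arrays account for the differences of both lists was not tested.

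The phosphoinositide and mTORC1 genes, around Inpp5d and Rheb, had 5 of 15 higher and 1 lower in KO, and 2 of 14 higher and 0 lower in WT. They included Pik3cb (1.20 in KO and 3.03 in WT), a catalytic subunit of PI3-kinase, and Rps6kb1 (1.97 in KO and 1.53 in WT), a kinase below mTORC1. The WT share (14.3%) was below the 20.3% of all genes. Of 13 measured throughout, 2 were at least 2-fold lower and 3 higher in KO than in WT, with a median of 0.22, near the shares of all genes (20.2% and 16.5%). Of the PRC2 genes, the partners of Jarid2, 0 of 9 were higher and 1 lower in KO, and 2 of 9 were higher and 0 lower in WT, namely Mtf2 (0.98 in KO and 2.004 in WT) and the methyltransferase gene Ezh2 (0.74 in KO and 1.63 in WT). That WT share (22.2%) was near the 20.3% of all genes and is no result about the list.

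Of the BACH1 partners and NRF2 genes, 2 of 9 were higher and 1 lower in KO, and 2 of 8 were higher and 0 lower in WT. Of the 8 measured throughout, 3 were at least 2-fold lower and 1 higher in KO than in WT, with a median of -0.76. Nfe2l2, which encodes the antioxidant activator NRF2, was at 1.90 in KO and 4.04 in WT, and Hmox1, the heme oxygenase gene that BACH1 represses, at 0.01 in KO and 1.12 in WT. Among the C/EBP genes and their partners, 1 of 4 in KO and 1 of 6 in WT was at least 2-fold higher and 0 were lower, the higher gene being Cebpd (3.58 in KO and 4.19 in WT). Of the TspanC8 and ADAM10 genes, 0 of 4 passed 2-fold in KO, and in WT 1 was higher, Tspan17 (0.45 in KO and 1.24 in WT), and 1 lower, Tspan15 (-0.25 in KO and -1.33 in WT). Adam10 itself was at 0.23 in KO and 0.82 in WT. The WT shares of these 3 lists (25%, 16.7% and 25%) lay near the 20.3% of all genes.

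The profile of the 7 genes above background on all 6 arrays, each centred on its own mean and then averaged, was 0.19 (AGO2-RIP), -0.25 (IgG-RIP) and -0.08 (input) in KO, and 0.64, -0.37 and -0.14 in WT. The single genes departed from it by 0.48 (Tspan14) to 1.24 (Jarid2), as the root mean square over 6 arrays, so the mean profile described none of them closely. Among 12378 other genes the nearest by that measure were Tcn2 (0.083), which encodes a cobalamin transport protein, Gm17776 (0.095), Resf1 (0.096) and Pwwp2b (0.099), followed by an intergenic probe region without a gene symbol (0.101).

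The 8-base miR-155 site also occurs in probes of other genes, and these probes were compared as a group. Over IgG-RIP in KO, 4 of 35 measured probes with the site were at least 2-fold higher (11.4%, beside 10.8% of all measured probes) and 6 were lower (17.1%, beside 10.9%), with a median of -0.26 beside -0.19. In WT 7 of 27 were higher (25.9%, beside 20.1%) and 3 lower (11.1%, beside 22.5%), with a median of 0.67 beside -0.24. Probes with the 7-base site opposite seed bases 2 to 8 gave 18.6% higher in WT, under the same 20.1%. Over input the probes with the 8-base site went the other way. In KO 0 of 36 were higher (0%, beside 14.3%) and 17 lower (47.2%, beside 27.1%). In WT 5 of 36 were higher (13.9%, beside 14.4%) and 18 lower (50%, beside 26.7%). The medians were -0.89 in KO and -0.9999 in WT, beside -0.27 in each. The control precipitate was lower still in WT, where 18 of 27 were at least 2-fold lower in IgG-RIP than in input (66.7%, beside 37.5%). There 2 were higher (7.41%, beside 17.9%), and the median was -1.74 beside -0.48. In the KO control 14 of 33 were lower (42.4%, beside 29.3%) and 3 higher (9.09%, beside 17.0%), with a median of -0.76 beside -0.29. The higher median of these probes over IgG-RIP in WT was thus not found over input. Their count of higher probes over IgG-RIP lay near the share of all probes and is no result about the site. A probe shows only 60 bases of its transcript, so probes without the site include genes that carry it elsewhere. The comparison holds 1 array per group and was given no test.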

How the data were processed

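Agilent 1-colour arrays, whose 60-base probes are placed on mm9 in the files, were read with Agilent Feature Extraction 10.7.3.1, per the submitters' processing notes. Per the file headers, the deposited processed signal is an intensity on a linear scale with background subtracted and spatial trends removed, without normalization across arrays. Per the labels' protocols, amplified cDNA (500 ng from each sample) was labelled with Cy3, so relative abundance was compared and not the amount precipitated.

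Here log2 intensity minus the 75th percentile of 59305 non-control spots was used. Spots of a probe were averaged, 54 probes with an outlier flag were dropped, and a gene was read from its brightest probe of 55627. Gene names were matched to a RefSeq table (GRCm38.p6) by accession for 27634 probes, by symbol for 3399 and by synonym for 320, and 24274 kept the array's name. Differences between single arrays were called at 2-fold without a test. limma 3.58.1 (R 4.3.3) fitted fraction and genotype over genes above background on at least 2 arrays, with Benjamini-Hochberg adjustment. The code was tried on simulated data with equal noise for every gene and the same change in both genotypes. That setting is simpler than these arrays, so it does not show how well the fit performs on them. Tables were handled with Python 3.11.15, numpy 2.4.6 and pandas 2.3.3. Alternatives were centring on the median, quantile normalization, normexp, the median over a gene's probes, other background filters and leaving out each array. All genes of the list are named in the text, lists are described by counts with their highest and lowest genes, and the genes and lists were chosen with earlier results of these data known.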

Additional observations from a re-analysis of the deposited data

How the results depend on the processing

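The 6 groups hold 1 array each, so differences between single arrays have no error beyond spot noise, and the number of arrays and signal over background limit the precision. Beyond the genotype term of the limma fit, which compares fractions within a genotype, no paired analysis was possible because the labels give 1 array per group and no replicate numbers. Counts of the 8 genes past 2-fold moved as follows, each against the value in the report. AGO2-RIP under IgG-RIP in KO had 0 lower with normexp instead of 1. AGO2-RIP over input in KO had 2 higher without a background filter and 3 with quantile normalization instead of 1, and 2 lower with median centring and 0 with quantile normalization instead of 1. In WT it had 0 lower instead of 1 with the median over probes, normexp or quantile normalization. KO against WT input had 1 higher without a filter instead of 0, and 0 lower with normexp or quantile normalization instead of 1. KO minus WT over IgG-RIP had 1 higher without a filter instead of 0, and 2 lower with normexp instead of 4. Over input it had 2 lower with median centring or no filter instead of 1. The unfiltered counts include arrays not well above background. Otherwise the cause was not tested.

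In the limma fit of AGO2-RIP against IgG-RIP, 538 genes were higher and 40 lower when only genes above background on all 6 arrays were fitted, and 248 and 15 with normexp, instead of 0 and 0. Leaving out 1 array gave 0 to 459 higher and 0 to 67 lower, the upper values without the KO IgG-RIP array. Of the 8 genes, 1 was called with normexp instead of 0, and 2 of the 7 that the all-array filter kept were called. Against input, genes called higher numbered 444 without a filter and 0 with quantile normalization instead of 844, and 0 to 2110 when 1 array was left out. Genes called lower numbered 2584 with the all-array filter, 584 without a filter, 2432 with normexp and 0 with quantile normalization instead of 1090, and 0 to 2548 when 1 array was left out. Of the 8 genes, 3 were called higher with normexp and 0 with quantile normalization instead of 1, and 2 of the 7 kept by the all-array filter were called higher. Over all genes, AGO2-RIP over IgG-RIP called 997 to 4098 higher in KO and 2574 to 5388 in WT, the low end with normexp and the high end without a filter.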
